A study of Mus musculus with 20 samples.

Results

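The comparison described here is an interaction: it asks whether mutant cells depart from control cells by the same amount in both luminal subsets of the mouse mammary gland. It was computed for each gene as the mutant-control difference in Sca1-positive luminal cells minus the mutant-control difference in Sca1-negative luminal cells. It rests on 11 of the 20 arrays of the study, and 19937 genes were tested. All animals had a mixed FVB/CD-1 background, carried the K8-creERT2 driver and had received tamoxifen 4 weeks before the cells were taken. Control animals were K8-creERT2 and mutant animals were K8-creERT2/PIK3CA H1047R, in which the Cre recombinase switches on a transgene for mutant PIK3CA. Keratin 8 names the driver of the Cre, so recombination is directed to cells in which this luminal keratin promoter is active. From controls, GFP-negative luminal cells were collected (3 arrays Sca1-negative, 3 arrays Sca1-positive). From mutants, GFP-positive luminal cells, which express the transgene per the labels, were collected (3 arrays Sca1-negative, and 2 arrays Sca1-positive, numbered 1 and 3). The effect of the mutant and the choice of GFP-positive cells therefore cannot be told apart in either gate.

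Luminal cells were CD45-negative and CD24-high, and each array was made from the amplified RNA of 2000 sorted cells. The glands of 2-3 mice in the same estrous phase had been pooled for each genotype, in 3 separate sorts. The p-values measure differences against the spread between such pools, and their precision is set by the few arrays per group. The other 9 arrays, of basal cells, entered the tests only through the estimate of that spread, and their levels are given for Tph1 and Il33.

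PIK3CA encodes the catalytic subunit of phosphoinositide 3-kinase alpha, which makes the membrane lipid that recruits AKT, and the H1047R form is constantly active. In the mammary gland the Sca1-positive luminal gate is enriched for hormone-sensing cells, which carry the estrogen and progesterone receptors. The Sca1-negative luminal gate is enriched for progenitors of the secretory, alveolar lineage, which make milk proteins when the gland differentiates.

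The arrays had log2 medians between 3.66 and 3.80. Over all probe sets, the values of replicate 2 of control Sca1-positive cells were spread less widely (SD 1.725) than those of the other luminal arrays (1.813 to 1.882). Ly6a, the gene of Sca1, has no probe set of its own in the table used here, so the gate was checked with other markers. On control arrays the mean log2 level over 11 hormone-sensing markers was 6.74 to 7.20 in the Sca1-positive gate and 6.39 to 6.64 in the Sca1-negative gate. The mean over 13 luminal progenitor markers was 6.29 to 6.43 and 7.80 to 8.03 in the same order. Krt8 was between 11.80 and 11.96 on the luminal arrays, and Ptprc, the gene of CD45, was between 3.33 and 4.04. The mean over 16 immune cell markers was 3.41 to 3.61, and that over 9 endothelial markers 3.40 to 3.83.

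The interaction was called for 28 genes by limma (Benjamini-Hochberg adjusted p under 0.05, 0.140% of all genes). In 22 of them (0.110%) the mutant-control difference was more positive in Sca1-positive cells, and in 6 (0.0301%) it was more negative. At an unadjusted p under 0.05 there were 1129 genes. The interaction is measured less precisely than either difference, with a median standard error of 0.235 on the log2 scale against 0.156 for Sca1-negative and 0.175 for Sca1-positive cells. The 95% interval reached 0.50 to either side in the median gene. A call after adjustment needs more than an interval that leaves out 0. The called interaction nearest to 0 was -0.96 (Nav3), so differences well above 0.50 could also go uncalled. The count was 45 without replicate 1 of control Sca1-positive cells, 46 without replicate 1 of mutant Sca1-positive cells and 72 with array weights. It was 20 without replicate 3 of mutant Sca1-positive cells (15 of the 28 kept) and 13 with only replicates 1 and 3 of the luminal groups (10 of the 28 kept). The negative calls were 3 without either mutant Sca1-positive array, 10 without replicate 2 and 14 without replicate 3 of mutant Sca1-negative cells, and the positive calls ran from 17 to 43 over all single arrays left out. With only the 11 luminal arrays in the fit it was 35, of which 15 were among the 28.

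**Figure D1:**
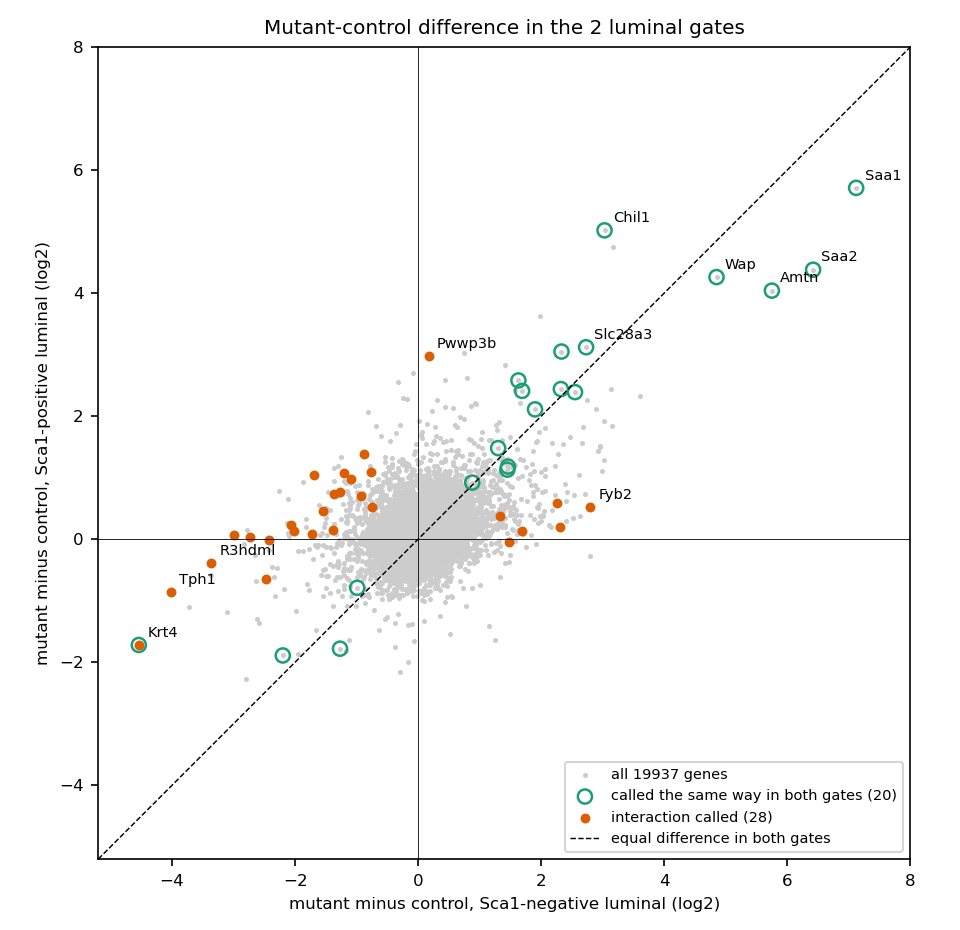
Each point is a gene, with the mutant minus control difference (log2) in Sca1-negative luminal cells on the x axis and that in Sca1-positive luminal cells on the y axis. Orange points are the 28 genes called in the interaction, green rings the 20 genes called in the same direction in both gates, grey points all 19937 genes, and the dashed line marks equal differences. Most orange points with a positive interaction lie left of zero and near or above the horizontal axis, and the green rings lie where both differences have the same sign, with Saa1 at the upper right and Krt4 above the dashed line by its interaction of 2.82.

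Among the 22 genes with a positive interaction, 19 were also called lower in mutant Sca1-negative cells, 3 were called in Sca1-positive cells (Krt4 lower, Pwwp3b and Rasgrf1 higher) and 2 (Rassf6 and Slc44a4) were called in neither gate alone. These counts describe the same arrays that gave the interaction and are no separate test. The median difference of the 22 genes was -1.62 in Sca1-negative and 0.34 in Sca1-positive cells, and the sign was opposite in 16. All 22 also had a higher mean in Sca1-positive than in Sca1-negative control cells, by 0.05 to 1.24 (median 0.50). In mutant cells that gap was 1.78 to 3.88 (median 2.82). The interaction equals the gap in mutants minus the gap in controls, so a wider gap in mutants follows from the choice of these genes. The share of all genes with a control gap above 0 was not counted. On bulk arrays of sorted cells, fewer cells of a type and less RNA per cell cannot be told apart, here and in every comparison that follows.

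Tph1, the rate-limiting enzyme for making serotonin, had the highest fitted interaction. In Sca1-negative cells its log2 levels were 6.98, 7.34 and 7.94 on the control arrays and 3.19, 3.54 and 3.45 on the mutant arrays. In Sca1-positive cells they were 7.41, 8.45 and 7.90 on the control arrays and 7.31 and 6.81 on the mutant arrays. The mutant Sca1-negative arrays lay far below the other luminal arrays, near the basal groups, whose means were 3.25 to 3.41. These levels are below the array medians, at the low end of the scale, where the size of a fall is limited, so no order is read between Tph1 and Plac8. The interaction was 3.16 ± 0.37 (SE, adjusted p = 0.00174), from a fall by 4.02 on the log2 scale in Sca1-negative cells (adjusted p = 1.44e-07) and a difference of -0.86 in Sca1-positive cells that did not pass (adjusted p = 0.309).

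Krt4, a keratin of stratified epithelia, was called in the interaction and fell in both gates. Its control levels were 9.41, 9.35 and 8.50 in Sca1-negative and 9.97, 10.44 and 10.02 in Sca1-positive cells. Its mutant levels were 4.59, 4.55 and 4.49 in Sca1-negative and 8.40 and 8.44 in Sca1-positive cells. Mutant and control arrays did not overlap in either gate, and the mutant arrays of the gates were far apart. Krt4 fell by 4.54 in Sca1-negative (adjusted p = 3.46e-09) and by 1.72 in Sca1-positive cells (adjusted p = 0.00186), with an interaction of 2.82 ± 0.29 (SE, adjusted p = 0.00113). Of 10 simple and stratified keratins, Krt6a and Krt80 also fell in Sca1-negative cells. Their calls passed in 15 and 9 of 20 alternative settings. Krt6a had an interaction of 2.93 that did not pass (adjusted p = 0.286), with mutant Sca1-negative arrays at 6.47, 5.05 and 4.91.

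Most genes with a positive interaction fell in Sca1-negative cells and had no called difference in Sca1-positive cells. Stc2, the secreted glycoprotein stanniocalcin 2, is on the hormone-sensing list. Its levels in Sca1-negative cells were 8.93, 8.98 and 8.88 in controls and 6.53, 6.36 and 6.61 in mutants, and in Sca1-positive cells 9.70, 9.15 and 9.25 in controls and 9.16 and 9.56 in mutants. The Sca1-positive arrays of both genotypes interleaved, and the Sca1-negative ones were separated by more than their spread. The interaction of Stc2 was 2.42 ± 0.37 (SE, adjusted p = 0.0104).

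Plac8, which encodes a small cysteine-rich protein, stood at 5.81, 6.44 and 5.39 in control and 2.97, 2.84 and 2.85 in mutant Sca1-negative cells. Its Sca1-positive levels were 6.27, 6.27 and 7.42 in controls and 6.60 and 6.83 in mutants, which overlapped. The interaction was 3.05 ± 0.40 (SE, adjusted p = 0.00406). R3hdml had control levels of 7.26, 7.58 and 7.98 and mutant levels of 4.82, 3.73 and 4.18 in Sca1-negative cells, while the 5 Sca1-positive arrays lay between 7.24 and 8.44. Its interaction was 2.97 (adjusted p = 0.00848). Gipc2, a PDZ-domain adaptor, fell by 2.73 on the log2 scale in Sca1-negative cells and differed by 0.04 in Sca1-positive cells, with an interaction of 2.77 (adjusted p = 0.0104).

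Fgfr2, a receptor for fibroblast growth factors, was at 8.27, 8.33 and 8.32 in control and 6.47, 6.90 and 6.37 in mutant Sca1-negative cells. In Sca1-positive cells it was at 9.07, 8.69 and 8.81 in controls and 8.96 and 8.92 in mutants. The Sca1-positive mutant arrays lay inside the control range, and those of the Sca1-negative gate lay below it. Fgfr2 fell by 1.73 in Sca1-negative cells, and its interaction was 1.81 ± 0.22 (SE, adjusted p = 0.00183). Lifr, the receptor for leukemia inhibitory factor, fell by 2.47 in Sca1-negative cells, from 8.04, 8.11 and 7.93 to 5.81, 5.28 and 5.59. Its Sca1-positive arrays did not overlap either, with 8.61, 8.77 and 8.47 in controls and 7.88 and 8.04 in mutants, a difference of -0.65 (adjusted p = 0.143). The interaction of Lifr was 1.81 ± 0.21 (SE, adjusted p = 0.00174).

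Arhgap40 was at 5.92, 5.94 and 5.48 in control and 3.78, 3.79 and 3.73 in mutant Sca1-negative cells, and between 6.53 and 6.89 on the 5 Sca1-positive arrays. Its interaction was 2.14 ± 0.25 (SE, adjusted p = 0.00174). Cav1, the coat protein of caveolae, fell by 1.54 in Sca1-negative cells and differed by 0.45 in Sca1-positive cells (interaction 1.99, adjusted p = 0.0184). Its Sca1-positive arrays did not overlap, with 8.77, 8.76 and 8.43 in controls and 9.21 and 8.98 in mutants. Mlph, a linker between vesicles and myosin, fell by 1.38 against a difference of 0.15 (interaction 1.53, adjusted p = 0.00594). These genes differ in how far the Sca1-negative level dropped, while none of their Sca1-positive differences passed the test.

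Slc7a2, a carrier of arginine and other cationic amino acids, fell by 2.06 in Sca1-negative cells, and Arg2, the mitochondrial arginase, fell by 1.36. Their differences in Sca1-positive cells were 0.23 and 0.73, and their interactions 2.29 (adjusted p = 0.0207) and 2.08 (adjusted p = 0.0422). Sptlc3, a subunit of the enzyme that starts sphingolipid synthesis, was at 6.98, 6.14 and 6.68 in control and 5.56, 5.57 and 5.05 in mutant Sca1-negative cells. In Sca1-positive cells it was at 7.39, 6.73 and 7.18 in controls and at 8.31 and 8.03 in mutants. The mutant arrays thus lay below the controls in one gate and above them in the other, and the interaction was 2.28 ± 0.34 (SE, adjusted p = 0.00854). Manba, a lysosomal mannosidase, had an interaction of 1.63 (adjusted p = 0.0373), Adam10, a protease that sheds cell-surface proteins, 1.28 (adjusted p = 0.0184), and Sh3d19, an SH3-domain adaptor, 2.04 (adjusted p = 0.0207).

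Rasgrf1, a guanine nucleotide exchange factor for Ras, was called in opposite directions in the gates. It was at 5.50, 5.46 and 5.38 in control and 4.47, 4.68 and 3.90 in mutant Sca1-negative cells. It was at 6.18, 6.29 and 6.71 in control and 7.32 and 7.41 in mutant Sca1-positive cells. It was the 1 gene of 19937 called lower in one gate (by 1.09, adjusted p = 0.00206) and higher in the other (0.97, adjusted p = 0.0449), with an interaction of 2.07 ± 0.25 (SE, adjusted p = 0.00183). The call in Sca1-positive cells passed in 7 of 20 alternative settings and that of the interaction in all 20.

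Il33, an alarmin cytokine of the interleukin-1 family, had differences of opposite sign, of which the one in Sca1-negative cells passed the test. Its Sca1-negative levels were 5.95, 6.81 and 6.69 in controls and 4.93, 4.66 and 4.79 in mutants, a fall by 1.69 (adjusted p = 0.00801). Its Sca1-positive levels were 6.02, 7.34 and 7.14 in controls and 8.19 and 7.55 in mutants, a difference of 1.04 that did not pass (adjusted p = 0.34). The arrays overlapped in neither gate, and the interaction was 2.74 ± 0.47 (SE, adjusted p = 0.024). GFP-positive basal cells of the mutants had an Il33 mean of 8.58 ± 0.30 (SD, n = 3), so mutant Sca1-negative luminal cells (4.79 ± 0.13, SD, n = 3) were the GFP-positive group with the lowest mean.

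Because the Il33 interaction was called, in 13 of 20 alternative settings too, with arrays that overlapped in neither gate, the 250 bases before each of its start sites in RefSeq (mouse assembly GRCm38.p6) are shown. Both lie on the plus strand, at chr19:29924863-29925112 and chr19:29945540-29945789. Capitals mark a forkhead-type match (TGTTTAC) at position -162 in the upstream window and a C/EBP-type match (TTGCNNAA) at position -85 in the downstream one, counted back from the start site with the last base of the window at -1.
Il33 upstream start: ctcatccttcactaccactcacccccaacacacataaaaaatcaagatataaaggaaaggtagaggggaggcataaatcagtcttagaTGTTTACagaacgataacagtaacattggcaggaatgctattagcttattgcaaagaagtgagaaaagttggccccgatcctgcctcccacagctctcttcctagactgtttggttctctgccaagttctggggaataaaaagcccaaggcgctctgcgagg
Il33 downstream start: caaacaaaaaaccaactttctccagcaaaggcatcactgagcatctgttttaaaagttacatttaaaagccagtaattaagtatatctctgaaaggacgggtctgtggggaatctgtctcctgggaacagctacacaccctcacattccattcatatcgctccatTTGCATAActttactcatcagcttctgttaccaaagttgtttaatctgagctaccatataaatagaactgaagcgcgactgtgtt

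The motifs were searched on both strands in 32851 windows of this length. TTGCNNAA was found in 9.56% of them, TGTTTAC in 3.17% and the STAT-type motif TTCNNNGAA in 7.02%. Of the 22 genes with a positive interaction, 18 had a window in the table. Among these, Il33, Plac8 and Sptlc3 held a C/EBP-type match, Il33 and Rassf6 a forkhead-type match, and none a STAT-type match. A gene was counted if any of its windows held the match, so these counts are per gene and the shares above per window. A match is a description of letters and was not tested as a site.

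Pwwp3b, a PWWP-domain gene, was the member of this group that rose in Sca1-positive cells with no called difference in Sca1-negative cells. Its Sca1-negative levels were 3.55, 3.35 and 3.51 in controls and 3.59, 3.46 and 3.86 in mutants, all at the low end of the array and overlapping. Its Sca1-positive levels were 3.93, 4.51 and 4.40 in controls and 7.96 and 6.54 in mutants. The rise of 2.97 (adjusted p = 0.000158) rests on mutant arrays that differed from each other by more than the whole control range, and the interaction was 2.80 ± 0.39 (SE, adjusted p = 0.00586). Slc44a4, a choline transporter-like gene, was at 7.20 and 7.68 on the mutant Sca1-positive arrays and between 4.60 and 6.37 on the other 9 luminal arrays. Rassf6, a Ras-association domain gene, was at 5.41 and 6.17 on those mutant arrays and between 3.39 and 4.94 on the others. For neither gene did a single gate pass the test, and the interactions were 2.27 (adjusted p = 0.0303) and 1.85 (adjusted p = 0.012).

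**Figure D2:**
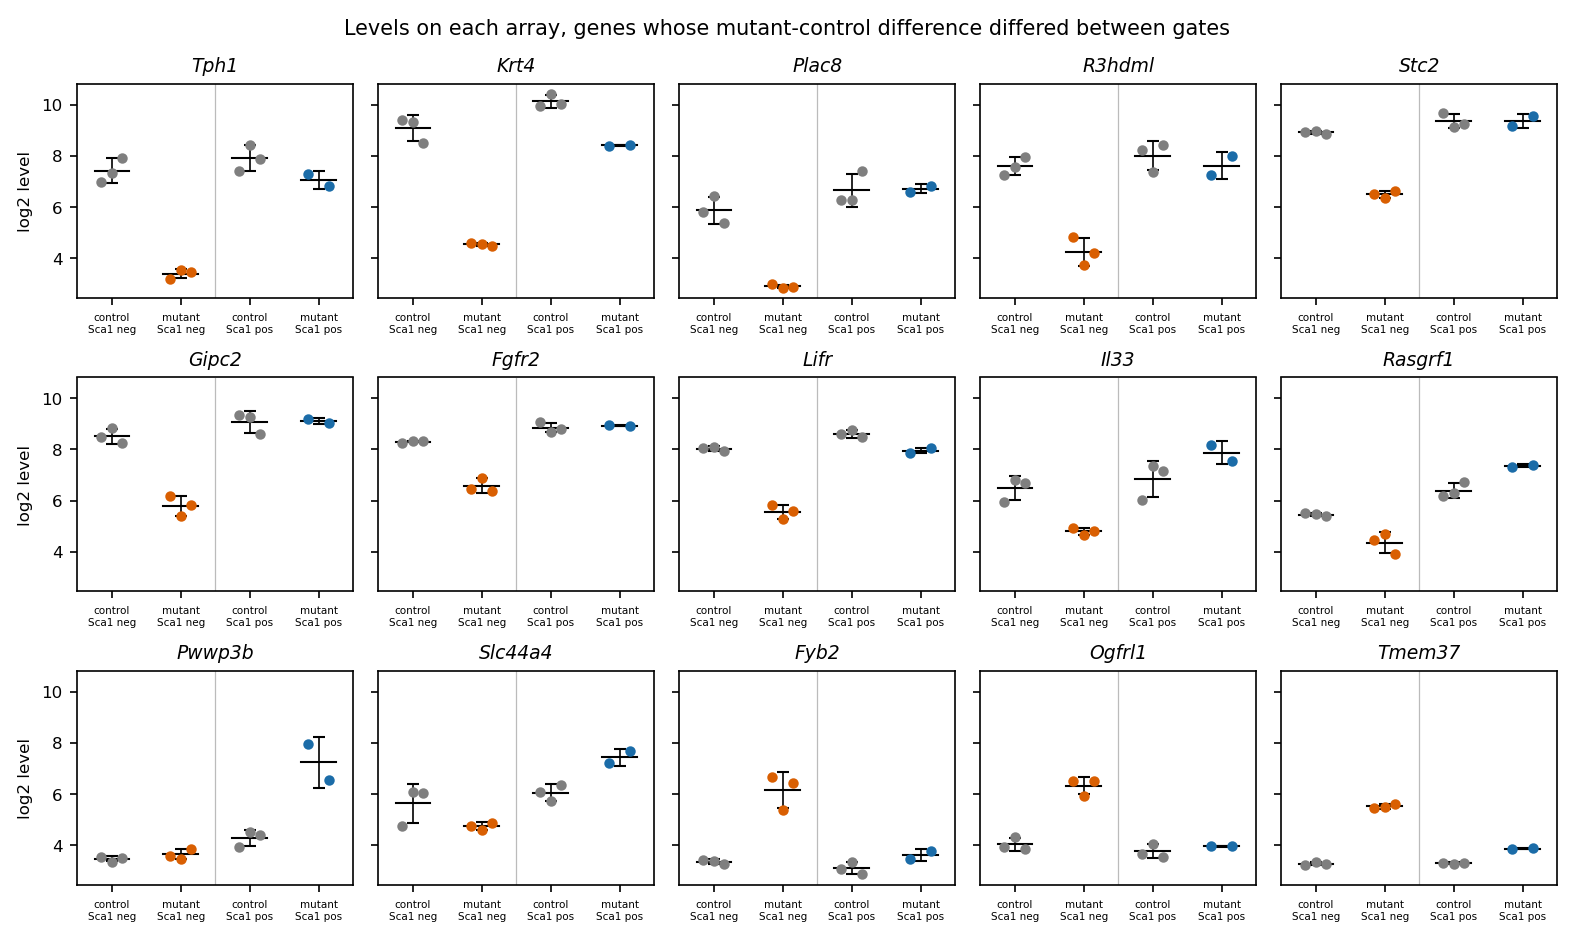
Log2 levels on each luminal array for 15 genes called in the interaction, 1 panel per gene, with the groups on the x axis (control and mutant Sca1-negative left, control and mutant Sca1-positive right). Points are arrays, horizontal lines are group means and error bars are 1 SD. Tph1, Krt4, Plac8 and Stc2 show low mutant Sca1-negative arrays, Pwwp3b and Slc44a4 show high mutant Sca1-positive arrays, and Fyb2, Ogfrl1 and Tmem37 show high mutant Sca1-negative arrays.

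The 6 genes with a negative interaction all rose in Sca1-negative mutant cells, and none was called in Sca1-positive cells by limma, where their differences ran from -0.05 to 0.58. In mutant cells all 6 were lower in the Sca1-positive than in the Sca1-negative gate, by 1.21 to 2.54 on the log2 scale. Their Sca1-positive group means ran from 3.09 (Fyb2, controls) to 3.95 (Ogfrl1, mutants), at the low end of the scale. Their control Sca1-negative means were also low, from 3.27 (Tmem37) to 4.14 (Nav3). A rise can be understated at such levels, and its part in these interactions was not tested. Fyb2, an adaptor gene, was at 3.42, 3.38 and 3.26 in control and 6.67, 5.36 and 6.43 in mutant Sca1-negative cells. On the Sca1-positive arrays it was at 3.08, 3.34 and 2.87 in controls and 3.45 and 3.77 in mutants. The Sca1-positive mutant arrays lay just above their controls and near the Sca1-negative controls, and the interaction was -2.29 ± 0.35 (SE, adjusted p = 0.0104).

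Ogfrl1, related to the opioid growth factor receptor, was at 3.94, 4.31 and 3.83 in control and 6.53, 5.94 and 6.52 in mutant Sca1-negative cells, and between 3.54 and 4.06 on the 5 Sca1-positive arrays. Its interaction was -2.11 (adjusted p = 0.017). Tmem37 was at 3.21, 3.35 and 3.27 in control and 5.44, 5.51 and 5.62 in mutant Sca1-negative cells. In Sca1-positive cells it was at 3.31, 3.24 and 3.30 in controls and 3.84 and 3.88 in mutants, a small step without overlap (0.58, adjusted p = 0.308) beside a rise of 2.25 in the other gate. Its interaction was -1.67 ± 0.25 (SE, adjusted p = 0.00848). Trpm6, a magnesium channel, had an interaction of -1.56 (adjusted p = 0.0422), Smoc1, a matricellular protein related to SPARC, -1.51 (adjusted p = 0.00487), and Nav3, a microtubule-associated protein, -0.96 (adjusted p = 0.0303). Window sequences were at hand for 3 of the 6 genes, and none held any of the motifs searched.

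The interaction calls differed in how far they held. Tph1, Krt4, Arhgap40, Rasgrf1, Lifr and Fgfr2 passed in all 20 alternative settings, and Plac8, Gipc2, Sptlc3, Tmem37 and Mlph in 19. Arg2, Manba and Trpm6 passed in 8, Nav3 in 10, Slc44a4 in 12, Il33 and Sh3d19 in 13 and Slc7a2 in 14. Cav1 and Adam10 passed in 15, R3hdml and Rassf6 in 17, and Stc2, Pwwp3b, Fyb2, Ogfrl1 and Smoc1 in 18. Not one of the 28 changed sign in any setting. Mutant and control arrays did not overlap in the Sca1-negative gate in 26 of the 28 genes, and in the Sca1-positive gate in 18 of the 28 (over all genes, 22.6% and 28.6%). The same arrays chose these genes, so the counts are a description.

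The differences within each gate give the common effects. In Sca1-negative cells 378 genes were called (1.90%), 242 higher (1.21%) and 136 lower (0.682%). In Sca1-positive cells 45 were called (0.226%), 36 higher (0.181%) and 9 lower (0.0451%). Without replicate 3 of mutant Sca1-positive cells the latter count was 19, and the former was 249 when the first control array of the Sca1-negative gate was left out and 248 when its mutant array numbered 3 was. With array weights the counts were 819 and 75. At an unadjusted p under 0.05 there were 2235 and 1786 genes, so the gates were closer by that count than by called genes.

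Both gates called 20 genes in the same direction (0.100%). The 16 higher genes were 6.61% of those higher in Sca1-negative and 44.4% of those higher in Sca1-positive cells, and the 4 lower genes were 2.94% and 44.4%. Without replicate 3 of mutant Sca1-positive cells the shared higher genes were 5, and without replicate 3 of mutant Sca1-negative cells 10. The shared lower genes were 1 without replicate 1 of mutant Sca1-positive cells, and 2 without replicate 3 of that group, replicate 1 of either control group, or replicate 1 or 2 of mutant Sca1-negative cells. The gates share no array, and they can share pools of mice.

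Genes called in one gate were read in the arrays of the other. Of the 242 genes higher in mutant Sca1-negative cells, 215 (88.8%) were above 0 in Sca1-positive cells, with a median difference of 0.45, against 39.2% of all genes above 0 and a median of -0.05. At an unadjusted p under 0.05, 99 of the 242 (40.9%) were above 0, against 4.51% of all genes. Of the 136 lower genes, 84 (61.8%) were below 0, with a median of -0.10 and a lower quartile of -0.41, against 60.8% of all genes and a lower quartile of -0.15. At an unadjusted p under 0.05, 25 of the 136 (18.4%) were below 0, against 4.44% of all genes. The genes that rose in Sca1-negative cells thus mostly leaned the same way in Sca1-positive cells, while of those that fell a smaller part did so. In the other direction, 31 of the 36 genes higher in Sca1-positive cells (86.1%) were above 0 in Sca1-negative cells, against 42.3% of all genes, and 9 of 9 lower genes were below 0, against 57.7% of all genes.

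The serum amyloid genes Saa1 and Saa2, acute-phase proteins carried on lipoproteins, rose in both gates, and Saa1 had the largest fitted rise in each. Saa1 was at 2.82, 3.32 and 3.17 in control and 10, 10.40 and 10.25 in mutant Sca1-negative cells. It was at 2.59, 3.74 and 2.89 in control and 8.68 and 8.89 in mutant Sca1-positive cells. All 5 mutant arrays lay far above all 6 control arrays, with rises of 7.12 (adjusted p = 3.92e-07) and 5.71 (adjusted p = 0.000128). Its control levels are at the low end of the scale, where a rise can be understated. Saa2 was at 3.18, 3.51 and 3.48 in control and 9.59, 9.84 and 10.01 in mutant Sca1-negative cells, and at 4.04, 3.60 and 3.51 in control and 8.29 and 7.90 in mutant Sca1-positive cells. The mutant level was lower in the Sca1-positive gate for both genes. The interaction did not pass for Saa1 (-1.41, 95% interval -2.91 to 0.09) or Saa2 (-2.05, 95% interval -3.27 to -0.82, adjusted p = 0.292). The genes are close copies, and how their probe sets share signal is not given in the sources used here.

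The windows before their start sites are shown because both genes rose in both gates. They lie at chr7:46742981-46743230 (minus strand) and chr7:46751583-46751832 (plus strand) of GRCm38.p6 in RefSeq. They were identical in 238 of 251 aligned columns (94.8%). Capitals mark the C/EBP-type match TTGCNNAA at positions -182 and -183.
Saa1: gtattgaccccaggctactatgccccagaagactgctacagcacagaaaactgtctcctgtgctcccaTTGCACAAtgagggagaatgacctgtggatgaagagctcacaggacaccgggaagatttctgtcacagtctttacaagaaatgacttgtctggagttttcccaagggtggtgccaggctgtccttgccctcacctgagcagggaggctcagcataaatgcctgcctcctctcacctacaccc
Saa2: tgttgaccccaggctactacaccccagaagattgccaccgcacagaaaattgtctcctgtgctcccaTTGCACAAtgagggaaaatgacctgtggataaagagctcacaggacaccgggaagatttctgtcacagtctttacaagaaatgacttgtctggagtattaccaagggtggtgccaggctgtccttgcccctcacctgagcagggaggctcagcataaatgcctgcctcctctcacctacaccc

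Of the 16 genes that rose in both gates, 14 had a window, and Saa1, Saa2 and Slc28a3 held this match. Of the 4 that fell in both gates, 3 had a window, and Itih2 held it.

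Amtn, the enamel matrix protein amelotin, was at 4.89, 4.06 and 3.89 in control and 9.87, 10.36 and 9.85 in mutant Sca1-negative cells. It was at 3.67, 3.56 and 3.57 in control and 8.18 and 7.11 in mutant Sca1-positive cells, so the groups were separate in both gates. Amtn rose by 5.75 and 4.04, and its interaction of -1.71 (95% interval -2.58 to -0.83) did not pass (adjusted p = 0.163). Wap, the whey acidic protein of milk, was at 4.35, 5.52 and 3.83 in control and 9.97, 8.97 and 9.29 in mutant Sca1-negative cells, and at 3.64, 3.98 and 4.37 in control and 8.35 and 8.17 in mutant Sca1-positive cells. Its rises of 4.85 (adjusted p = 0.000357) and 4.26 (adjusted p = 0.014) were of like size, and the interaction was -0.58 with a 95% interval from -2.53 to 1.37. The Sca1-negative control pools alone spanned 3.83 to 5.52.

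Chil1, a chitinase-like protein, differed more among controls. It was at 7.26, 8.52 and 9.74 in control and 11.37, 11.50 and 11.75 in mutant Sca1-negative cells, and at 4.75, 3.97 and 6.82 in control and 9.97 and 10.43 in mutant Sca1-positive cells. The mutant arrays were above all controls of their gate, with rises of 3.03 (adjusted p = 0.0158) and 5.02 (adjusted p = 0.0035). Slc28a3, a nucleoside transporter, rose by 2.73 and 3.12, and its interaction of 0.39 had an interval from -0.70 to 1.47. Muc15, a mucin of the milk fat globule membrane, rose by 1.63 and 2.58, and the cell adhesion gene Ceacam10 by 2.33 and 3.05.

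Igfbp3, which binds insulin-like growth factors, was at 4.08, 3.54 and 4.19 in control and 7.02, 5.57 and 6.88 in mutant Sca1-negative cells, and at 4.20, 3.89 and 4.10 in control and 6.35 and 6.55 in mutant Sca1-positive cells. It rose by 2.55 and 2.39, and the interaction of -0.16 had an interval from -1.20 to 0.87. Sparc, a matricellular protein, rose by 2.32 and 2.44, and Pdlim3, a LIM protein of the actin cytoskeleton, by 1.69 and 2.41. Lrg1, an acute-phase glycoprotein, rose by 1.90 and 2.11, Sat1, which acetylates polyamines, by 1.30 and 1.48, and Ldha, the lactate dehydrogenase subunit of glycolysis, by 1.46 and 1.18. Rb1, the retinoblastoma cell-cycle inhibitor, rose by 1.45 and 1.13, and Chka, the first enzyme of phosphatidylcholine synthesis, by 0.88 and 0.92. The call in Sca1-positive cells passed in 5 of 20 alternative settings for Ldha, in 6 for Rb1 and Sat1, in 7 for Lrg1 and in 14 for Sparc and Chka.

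Besides Krt4, 3 genes fell in both gates. Itih2, a heavy chain that binds hyaluronan, was at 4.97, 6 and 5.32 in control and 3.26, 3.20 and 3.23 in mutant Sca1-negative cells, and at 6.66, 6.23 and 6.06 in control and 4.00 and 4.84 in mutant Sca1-positive cells. It fell by 2.20 and 1.89 on the log2 scale. Ift57, a protein of ciliary transport, fell by 1.27 and 1.78, and Ifitm3, an interferon-induced membrane protein, by 0.99 and 0.79, with the Sca1-positive call of Ifitm3 passing in 11 of 20 settings. Of the 20 shared genes, Ifitm3, Chka, Ldha and Rb1 had a 95% interval of the interaction that lay within 1 log2 unit of 0, and 13 of the 20 had one within 2 units. For the other 7, Krt4 among them, the interval reached beyond 2 units.

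**Figure D3:**
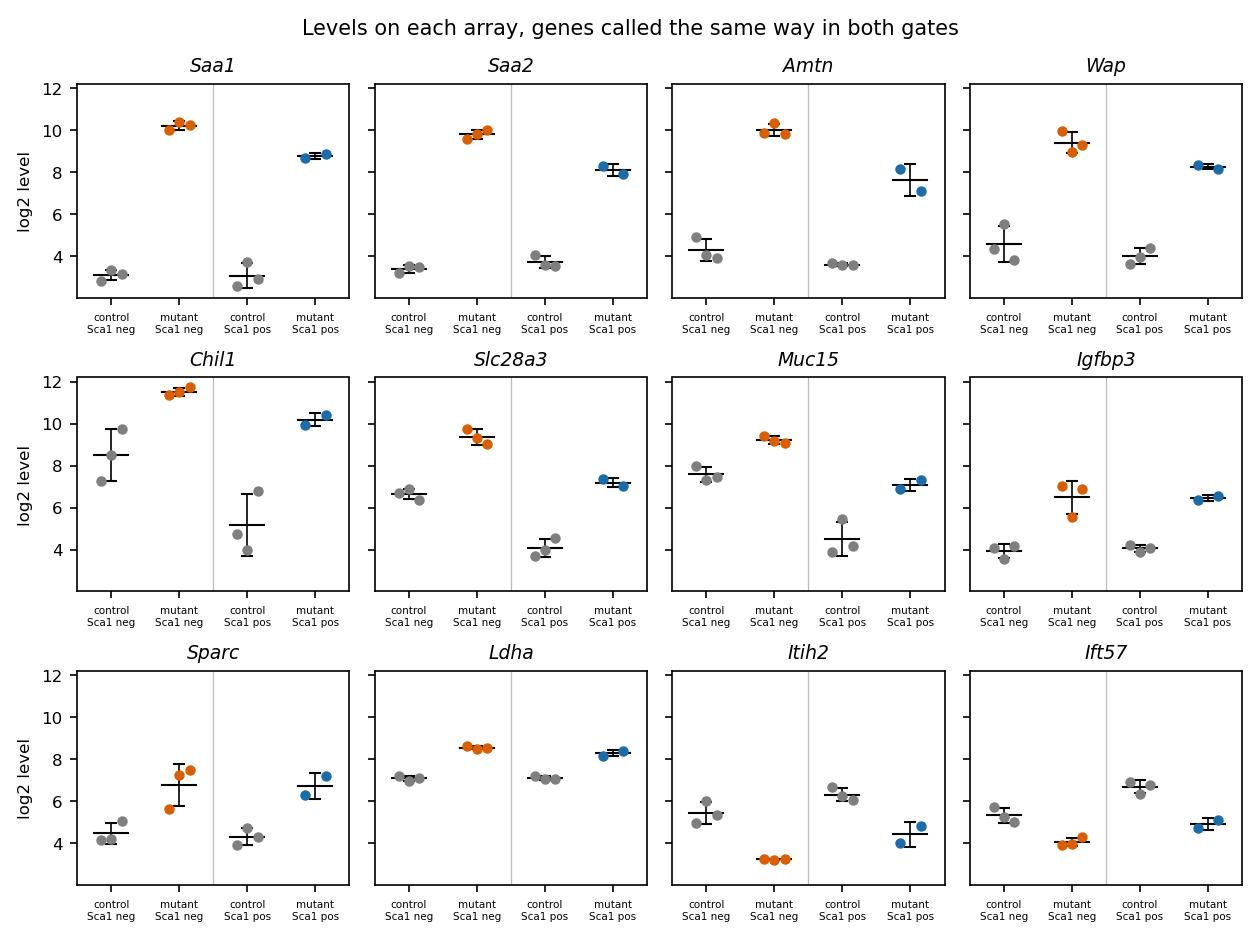
Log2 levels on each luminal array for 12 genes called in the same direction in both gates, 1 panel per gene, with the groups on the x axis, points for arrays, horizontal lines at the group means and error bars of 1 SD. Mutant and control arrays are separate in both gates in all 12 panels, for example Saa1 with mutants at 8.68 to 10.40 and controls at 2.59 to 3.74.

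**Figure D4:**
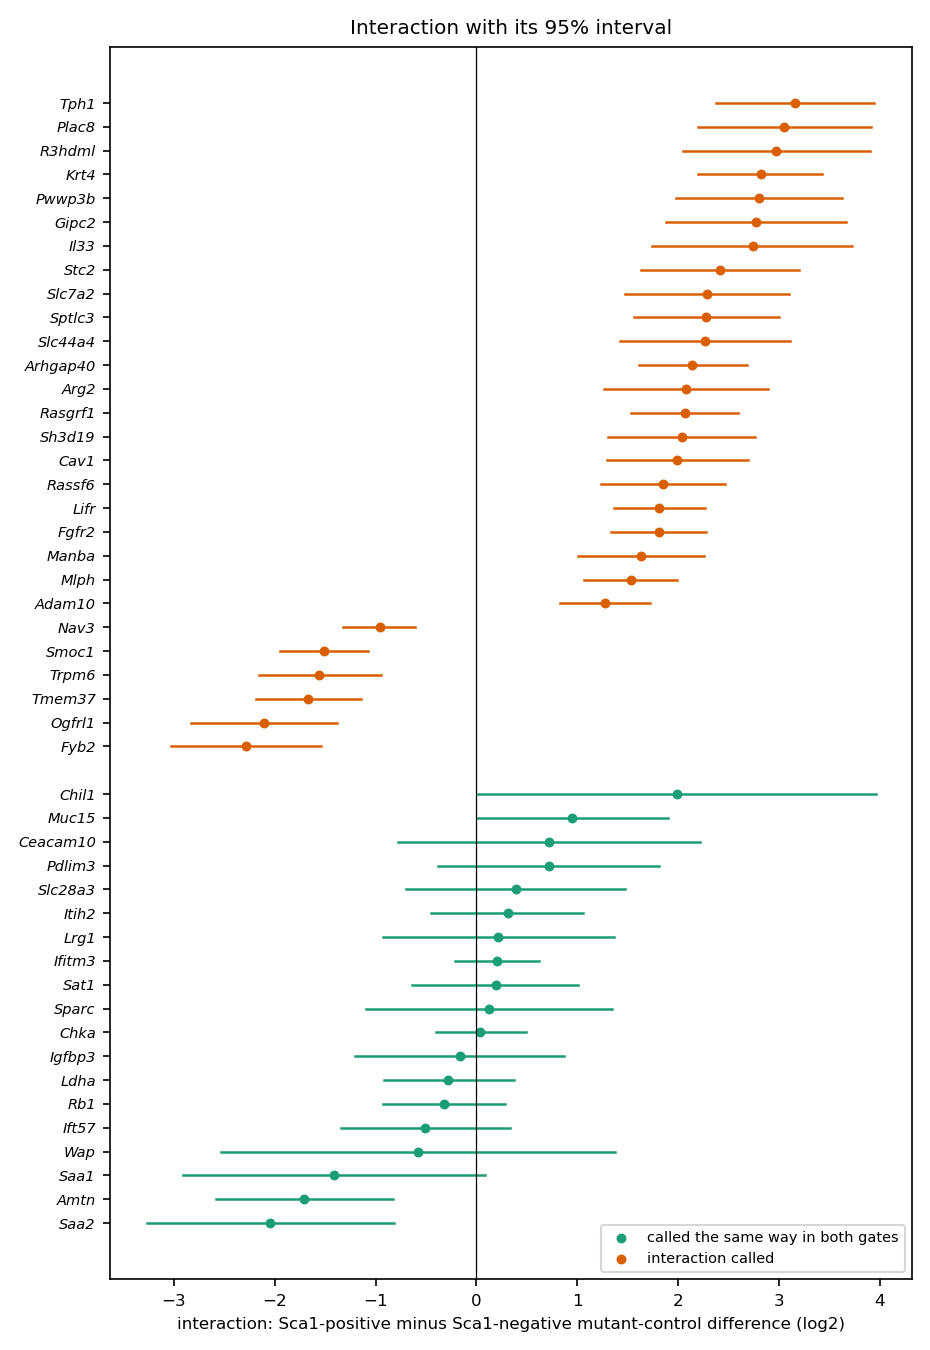
Interaction (x axis, log2 difference of the mutant-control differences, Sca1-positive minus Sca1-negative) with its 95% interval for each gene named on the y axis, orange for the 28 genes called in the interaction and green for the other 19 shared genes. The orange intervals exclude 0, and the green ones cover 0 except for Saa2, Amtn, Chil1 and Muc15. Their widths vary, with -0.21 to 0.62 for Ifitm3 and -2.53 to 1.37 for Wap.

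The average of both differences, which uses all 11 luminal arrays, was called for 354 genes (1.78%), 260 higher (1.30%) and 94 lower (0.471%). Of the higher genes 86 were called in neither gate alone, 143 only in Sca1-negative, 15 only in Sca1-positive cells and 16 in both. Of the lower genes these numbers were 27, 58, 5 and 4. An average can be called because of one gate: 7 of the higher and 11 of the lower genes were also called in the interaction. The same sign with an unadjusted p under 0.05 in both gates was found for 183 of the 260 and 53 of the 94. The count was 192 without replicate 3 of mutant Sca1-positive cells and 834 with array weights.

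Among the genes with the largest average change and the same direction in both gates were several that were not shared calls. The casein gene Csn2 had an average of 3.96 (adjusted p = 0.0192) and differed by 3.17 and 4.75. Its control arrays ran from 7.12 to 10.37 in Sca1-negative and from 4.49 to 8.60 in Sca1-positive cells, and its mutant arrays from 11.60 to 11.78 and at 11.03 and 11.03. Csn1s1, another casein, had an average of 2.80 (adjusted p = 0.0142). S100a8, a calcium-binding protein of inflammation, rose by 3.61 in Sca1-negative cells and differed by 2.33 in Sca1-positive cells (adjusted p = 0.18), with an average of 2.97. In the other direction, the fibrinogen chain Fgb had an average of -2.42, the uroplakin Upk3a -2.53, the signalling adaptor Bcar3 -1.98, the ERBB ligand Epgn -1.95, and Net1 and Crym -1.57 each. These genes fell in Sca1-negative cells, and their differences in Sca1-positive cells, -1.11 to -2.27, did not pass.

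Lists of genes with a common role were described in each gate, and across them the interaction was called for Stc2, Tph1 and Krt4. No test compared a whole list between the gates. Each list is given by its counts and its median difference, beside medians over all genes of -0.03 in Sca1-negative cells, -0.05 in Sca1-positive cells, -0.03 for the interaction and -0.04 for the average.

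Of 11 measured hormone-sensing genes, 6 fell in Sca1-negative cells and 5 were not called, with a median of -1.32. In Sca1-positive cells no member was called by limma and the median was -0.17. In that gate 1 member (9.09%) had an unadjusted p under 0.05, against 8.96% of all genes. The interaction was called for Stc2 and not for the other 10, 7 of the 11 had an unadjusted p under 0.05 (5.66% of all genes), 10 of the 11 were above 0 (45.1% of all genes), and the median was 1.25. Pgr, the progesterone receptor, was at 7.59, 7.62 and 7.57 in control and 4.95, 5.05 and 4.84 in mutant Sca1-negative cells, and at 8.32, 8.82 and 8.63 in control and 8.53 and 8.13 in mutant Sca1-positive cells. The Sca1-positive arrays overlapped, and the interaction of 2.39 did not pass (adjusted p = 0.0519). Foxa1, which opens chromatin for the estrogen receptor, had an interaction of 2.76 (adjusted p = 0.0845), Prom1, a surface marker of these cells, 1.82 (adjusted p = 0.128), Esr1, the estrogen receptor, 1.25 (adjusted p = 0.431), and Tbx3, a T-box repressor, 0.99 (adjusted p = 0.83).

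The mean level over the hormone-sensing list was 6.39 to 6.64 on control and 5.12 to 5.24 on mutant Sca1-negative arrays, and 6.74 to 7.20 on control and 6.88 to 6.89 on mutant Sca1-positive arrays. The mean of this list thus fell in the Sca1-negative gate, as did its 6 called members. Cited1 (-1.11) was not called there. Wnt4 (-0.41), Greb1 (-0.30), Tnfsf11 (-0.22) and Cited4 (-0.15) differed less and were not called either. In the average 5 of the 11 were lower: Pgr, Tbx3, Prom1, Stc2 and Tnfsf11. The average of Tnfsf11 was -0.28 (limma adjusted p = 0.0454), and its call passed in 4 of 20 settings. In Sca1-positive cells Tnfsf11 differed by -0.35 and did not pass (limma adjusted p = 0.245). The part of the hormone-sensing markers in the interaction calls was not tested.

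Of 13 luminal progenitor genes, Elf5, a transcription factor of the alveolar lineage, rose by 2.23 in Sca1-negative cells and Lcn2, an iron-scavenging lipocalin, by 1.82 in Sca1-positive cells. The median was 0.28 and 0.36, and in the average Elf5, Lcn2, Cd14 and Mfge8 were higher. The average call passed in 13 of 20 settings for Cd14 and in 9 for Mfge8. No member was called in the interaction by limma, and 2 (15.4%) had an unadjusted p under 0.05, against 5.66% of all genes. The mean level over the list was 7.80 to 8.03 on control and 8.28 to 8.36 on mutant Sca1-negative arrays, and 6.29 to 6.43 and 6.98 to 7.14 on Sca1-positive arrays.

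Milk and secretion genes, 11 in number, had medians of 1.63 and 1.58. Wap, Muc15 and Xdh, an enzyme needed for milk fat release, rose in Sca1-negative cells, and Wap and Muc15 in Sca1-positive cells. The average was called for 5. Of 19 acute-phase and innate genes, 7 rose in Sca1-negative cells and 5 in Sca1-positive cells, with medians of 0.77 and 1.01. Saa1, Saa2, Chil1 and Lrg1 rose in both, Saa3, S100a8 and the haptoglobin gene Hp in Sca1-negative cells, and Lcn2 in Sca1-positive cells. Saa3 stood at 5.10, 6.15 and 6.85 on the mutant Sca1-negative arrays and at 3.39 and 4.25 on the mutant Sca1-positive ones, and its interaction of -2.25 did not pass (adjusted p = 0.446). Interaction medians were -0.09 for milk genes and 0.07 for acute-phase genes, and no member of either list was called there by limma. At an unadjusted p under 0.05 there were 2 milk genes (18.2%) and 6 acute-phase genes (31.6%), against 5.66% of all genes.

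Of 11 glycolysis genes, Ldha, Pfkp (phosphofructokinase), Slc2a1 (the glucose transporter GLUT1) and Pkm (pyruvate kinase) rose in Sca1-negative cells, and Ldha and Tpi1 (triose phosphate isomerase) in Sca1-positive cells. The medians were 0.53 and 0.50, that of the interaction 0.01, and the average was called for 5. At an unadjusted p under 0.05 the interaction had 2 members (18.2%), against 5.66% of all genes. These were Tpi1 (1.08) and Pfkp (-0.71), with opposite signs. The call of Tpi1 in Sca1-positive cells passed in 9 of 20 settings. In Sca1-negative cells that of Pkm passed in 7 and that of Slc2a1 in 11. Of 16 cholesterol synthesis genes, none was called in a single gate by limma. At an unadjusted p under 0.05 there were 4 (25%) in Sca1-negative and 6 (37.5%) in Sca1-positive cells, against 11.2% and 8.96% of all genes. Pmvk and Fdft1 were higher in the average, and the Fdft1 call passed in 6 of 20 settings. A second Fdft1 probe set gave -0.13 and 0.62 in the Sca1-negative and Sca1-positive gates, where the one used gave 0.55 and 0.61. Of 11 fatty acid synthesis genes, the elongase Elovl6 (1.25) and the desaturase Scd2 (1.56) were higher in the average. Their calls passed in 13 and 11 of 20 settings.

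Of 15 PI3K pathway genes, Pik3ca was higher in the average by 0.87 (adjusted p = 0.0339) and was called in neither gate. It was at 5.82, 6.17 and 5.81 in control and 6.77, 6.83 and 6.30 in mutant Sca1-negative cells, and at 5.33, 5.12 and 5.16 in control and 6.61 and 5.86 in mutant Sca1-positive cells. The mutant arrays were above the controls in both gates, the average call passed in 10 of 20 settings, and it was not tested if this probe set reads the transgene. Among 18 FOXO-linked genes, the co-regulator Cited2 rose by 1.27 in Sca1-negative cells. The immediate early and stress list of 17 genes had a median of -0.27 in Sca1-negative and 0.13 in Sca1-positive cells. Fos fell by 1.10, Klf4 by 0.99 and Hspa1a by 0.67 in the Sca1-negative gate, and their interactions were 1.23, 0.85 and 0.58 and did not pass. These genes respond quickly to growth factors and stress. Dusp1, also on this list, was called in neither gate. It was higher in the average by 0.36 (limma adjusted p = 0.0296), which passed in 10 of 20 settings. At an unadjusted p under 0.05 there were 10 members (58.8%) in Sca1-negative and 4 (23.5%) in Sca1-positive cells, against 11.2% and 8.96% of all genes. The interaction had 7 such members (41.2%), against 5.66% of all genes, and 14 of the 17 were above 0 (82.4%, against 45.1%). Of 9 coagulation genes, the fibrinogen chains Fgb and Fgg fell by 3.73 and 3.36 in Sca1-negative cells. The fall of Fgg was uneven, with mutant arrays at 7.45, 4.83 and 4.34 and control arrays at 8.66, 9.43 and 8.60. The interactions of Fgb and Fgg, 2.62 and 2.79, did not pass (adjusted p = 0.128 and 0.404). Of 21 cell cycle genes, none was called in either gate or in the interaction by limma, and none had an unadjusted p under 0.05.

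Of 17 basal markers, Krt5 rose by 2.14 and Igfbp5 by 2.22 in Sca1-positive cells, and none was called in Sca1-negative cells by limma. In the Sca1-negative gate 7 (41.2%) had an unadjusted p under 0.05, against 11.2% of all genes. In the Sca1-positive gate 5 (29.4%) did, against 8.96% of all genes. Krt5 was at 4.75, 4.72 and 5.01 in control and 6.76 and 7.18 in mutant Sca1-positive cells. The mean level over the basal list was 4.68 to 4.81 on control and 5.10 to 5.28 on mutant Sca1-positive arrays, and 5.03 to 5.46 and 5.44 to 5.54 on Sca1-negative arrays. The contractile markers Acta2 and Myh11 differed by 0.74 and 0.21 in Sca1-positive cells and were not called. Tpm2 differed by 0.73 in Sca1-negative and 0.57 in Sca1-positive cells and was called in neither gate. In the average 3 basal markers were higher: Krt5, Igfbp5 and Tpm2. The average of Tpm2 was 0.65 (limma adjusted p = 0.0208), and its call passed in 14 of 20 settings. The part of basal cells in the Sca1-positive gate in these values was not tested.

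Of the markers of cells outside the epithelium, Dcn was called in Sca1-negative cells and in the average. The T cell co-receptor Cd4 was called in the average (-0.25, adjusted p = 0.0241), with group means of 3.10 to 3.42. The average call passed in 11 of 20 settings for Dcn and in 12 of 19 for Cd4. No member of the immune, endothelial, pericyte or adipocyte lists was called in either gate by limma. At an unadjusted p under 0.05, Sca1-negative cells had 3 immune (18.8%), 1 endothelial (11.1%), 1 pericyte (14.3%) and 1 adipocyte marker (14.3%). Sca1-positive cells had 1 (6.25%), 0, 2 (28.6%) and 1 (14.3%) in the same order. Over all genes the shares were 11.2% and 8.96%. Dcn, the proteoglycan decorin and a fibroblast marker, fell by 2.83 in Sca1-negative cells, from 10.53, 10.01 and 10.89 to 7.59, 6.99 and 8.38. It lay between 10.85 and 11.55 on the Sca1-positive arrays, and its interaction of 2.75 did not pass (adjusted p = 0.168). The other 8 fibroblast markers had differences between -0.14 and 0.27.

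**Figure D5:**
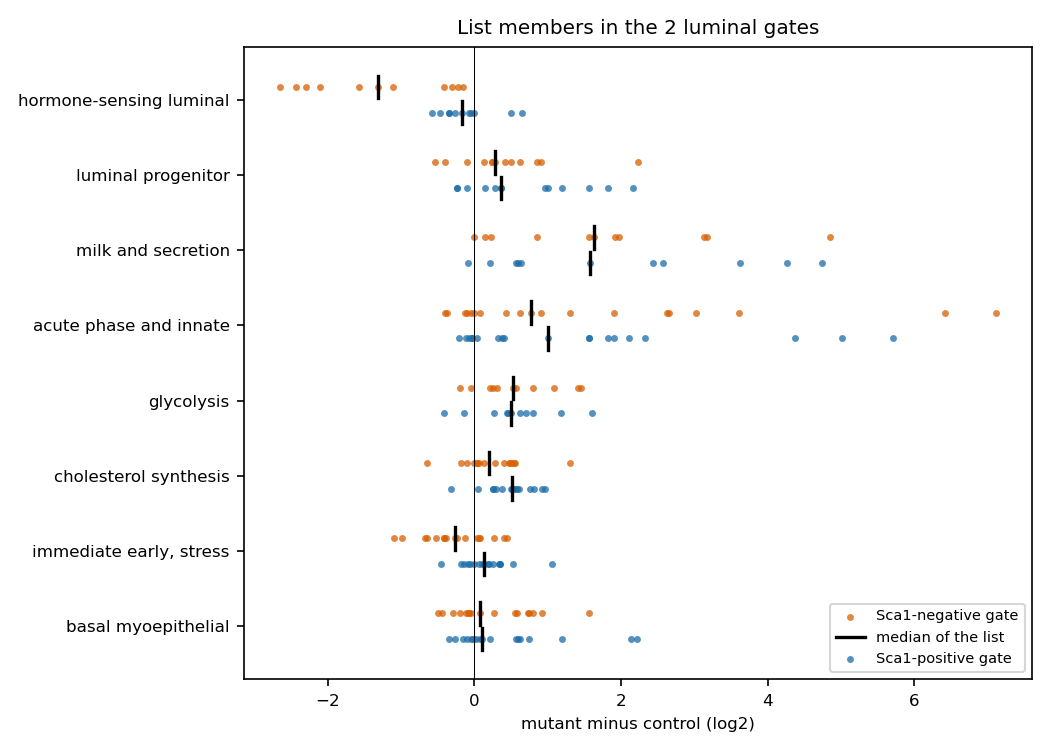
Mutant minus control difference (log2, x axis) of each measured member of 8 gene lists (y axis), orange for Sca1-negative and blue for Sca1-positive luminal cells, with a black bar at the median of the list. The hormone-sensing medians are apart (-1.32 and -0.17), while those of milk and secretion genes (1.63 and 1.58) and of glycolysis genes (0.53 and 0.50) lie together.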

How the data were processed

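The authors deposited log2 values, 1 column per array. Their unit was read from the values (1.98 to 13.07), and the submitters' processing notes name affy. No source used here states the normalization or the build. Of 34760 probe sets, 21640 carry 1 gene symbol, 1321 carry several and 11799 are unnamed in the platform table used here, and only the first were tested. For 954 genes with more than 1 probe set, the one with the highest mean was taken, which left 19937 genes. limma 3.58.1 in R 4.3.3 fitted 7 group means over 20 arrays. Calls used Benjamini-Hochberg adjustment over all genes within each contrast. The fit was tested on simulated data. Named genes were all interaction calls, all shared calls, the 10 largest average effects in each direction and called list members. The members and lists were chosen with earlier results of these data known. The 20 alternatives were a luminal-only fit, array weights, an intensity trend, a filter at the median level (3.83), probe set means, quantile normalization, replicate blocks, replicates 1 and 3 only and each luminal array left out.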

Additional observations from a re-analysis of the deposited data

Results flagged for a closer look

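For 28 genes the mutant-control difference differed between the luminal gates by the test of the interaction itself (limma, adjusted p under 0.05). The values are log2 differences, Sca1-positive minus Sca1-negative. They were 3.16 for Tph1, 3.05 for Plac8, 2.97 for R3hdml, 2.82 for Krt4, 2.80 for Pwwp3b, 2.77 for Gipc2 and 2.74 for Il33. They were 2.42 for Stc2, 2.29 for Slc7a2, 2.28 for Sptlc3, 2.27 for Slc44a4, 2.14 for Arhgap40, 2.08 for Arg2, 2.07 for Rasgrf1 and 2.04 for Sh3d19. They were 1.99 for Cav1, 1.85 for Rassf6, 1.81 for Lifr, 1.81 for Fgfr2, 1.63 for Manba, 1.53 for Mlph and 1.28 for Adam10. The 6 negative values were -2.29 for Fyb2, -2.11 for Ogfrl1, -1.67 for Tmem37, -1.56 for Trpm6, -1.51 for Smoc1 and -0.96 for Nav3. Groups of 2 or 3 arrays were too small for a test of single outlying arrays.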

How the results depend on the processing

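Array weights gave 72 genes for the interaction, 819 for Sca1-negative cells, 75 for Sca1-positive cells, 834 for the average, and 25 higher and 7 lower in both gates. With only replicates 1 and 3 of the luminal groups, the interaction was called for 13 genes (10 of the 28), Sca1-negative cells for 201 and 10 genes were higher in both. With only luminal arrays fitted, 2 genes were lower in both. Leaving out single luminal arrays gave 20 to 46 genes for the interaction, 248 to 392 for Sca1-negative cells, 19 to 63 for Sca1-positive cells, 192 to 364 for the average, 5 to 16 higher in both and 1 to 6 lower in both. In the other settings these counts stayed within 1.5 times the reported ones, which does not mean the same genes. The labels do not say that a replicate number marks a shared pool. Deviations of same-numbered arrays of one genotype correlated with r of 0.02 to 0.13 (5 pairs, median 0.08, 1 over 0.1). For other numbers within a genotype r was -0.10 to 0.05 (median -0.05). Between genotypes r was -0.02 to 0.07 (median 0.05) for the same number and -0.06 to 0.07 (median -0.02) for other numbers. The numbers were not taken as pairs, and these values do not exclude shared pools. With the number as a fixed replicate block the interaction was called for 32 genes (25 of the 28, without Arg2, Sh3d19 and Nav3), and with a random one for 30 (28 of the 28). Of the named calls, 6 of 28 passed in every setting for the interaction, 41 of 71 for Sca1-negative cells, 8 of 26 for Sca1-positive cells and 50 of 75 for the average, and 0 of these reversed. The mutant Sca1-positive group has 2 arrays, so each leave-out there leaves 1 array that is assumed to vary like the other groups.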
